A study of Mus musculus with 2 samples.

Results

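B4galt5 and Ptgis are neighbouring genes on mouse chromosome 2, and by count B4galt5 had more distal DNase-accessible regions near its starts than any other protein-coding gene in this adrenal gland series. They are 2 of 21802 protein-coding genes, chosen by the number of peaks away from gene starts that 2 libraries shared near them. That number, and the peak heights and footprints of the stretch, are therefore given as a description without a test. In DNase-seq, nuclei are treated with DNase I, and cuts pile up where chromatin is accessible. Both libraries were made from adrenal glands of B6CASTF1/J mice, adult males aged 18 to 20 months of an F1 hybrid strain that carries a genome from each of its parent strains, and no other genotype or treatment was given. They are labelled biological replicates 1 and 2 and form 1 group, so the only comparison is between the replicates, and no p-value is given here. The labels do not say whether the libraries came from separate animals or from pooled ones, so every SD measures only the spread between these libraries.

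B4galt5 encodes a galactosyltransferase of the Golgi that adds galactose to glucosylceramide, making lactosylceramide, the precursor of most complex glycosphingolipids of the cell surface. Ptgis encodes prostacyclin synthase, a cytochrome P450 that converts prostaglandin H2 into prostacyclin, a lipid mediator that widens blood vessels and restrains platelets and is made chiefly by endothelial and smooth muscle cells. Distal accessible regions are often enhancers or sites of insulator proteins, and a peak list does not assign them to a gene.

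Coordinates are 1-based on mm10 (GRCm38). Both genes lie on the minus strand. Ptgis (ENSMUSG00000017969.13) spans chr2:167191805-167240604 and B4galt5 (ENSMUSG00000017929.13) spans chr2:167298444-167349183, so the upstream side of Ptgis faces the 3' end of B4galt5. The window described runs from 50 kb before Ptgis to 50 kb after B4galt5, chr2:167141805-167399183, a length of 257.4 kb. It also holds the noncoding gene 1110018N20Rik, the antisense gene Gm14291 inside Ptgis, and Gm11473, a processed pseudogene between the genes. Ptgis has protein-coding starts at 167240589 and 167240604. B4galt5 has one at its 5' end, 167349183, and an internal one at 167305698.

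The longer of the peak lists held 98630 peaks in replicate 1 and 118249 in replicate 2. Heights came in whole multiples of a step, 0.00531 in replicate 1 and 0.00750 in replicate 2, and the library medians were 0.717 and 0.75. Promoter regions of adrenal cortex markers were present in both libraries for 6 of 6 genes, against 64.5% of all protein-coding genes. Chromaffin markers had them for 3 of 6, with Th and Pnmt in neither library and Dbh in replicate 1 only. Endothelial markers had 5 of 6, smooth muscle and fibroblast markers 5 of 6 without Acta2, hepatocyte markers 1 of 6 (Apoh) and kidney markers 2 of 6 (Lrp2 and Pax2).

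B4galt5 had 44 and Ptgis 28 distal regions with a peak in both libraries, ranks 1 and 4 among all protein-coding genes. A distal region lay more than 1 kb from every start and within 50 kb of a start of the gene. The median gene had 2, and 37 genes had 20 or more. Among the genes next in order were Tns1 with 33, ahead of Ptgis, and after it Vamp2 and Tmem107 on chromosome 11 and Cptp, Tas1r3 and Ints11 on chromosome 4, with 27 each, and then Ube2j2 with 26. Of the regions counted, 21 belonged to both counts, which is 47.7% of the B4galt5 regions and 75% of the Ptgis regions, and the union held 51.

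The B4galt5 count came mostly through its internal start. Within 50 kb of the internal start lay 42 distal regions, more than at any other of 54236 starts, while the 5' start had 12 and ranked 413. Each Ptgis start had 28 and ranked 2. Few of these regions were tall. Those above the median height in both libraries numbered 7 at B4galt5 (rank 952) and 8 at Ptgis (rank 632), against 55.8% of all shared distal regions. Tns1 kept 21 of 33, and Tmem107 and Vamp2 kept 24 of 27.

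**Figure D1:**
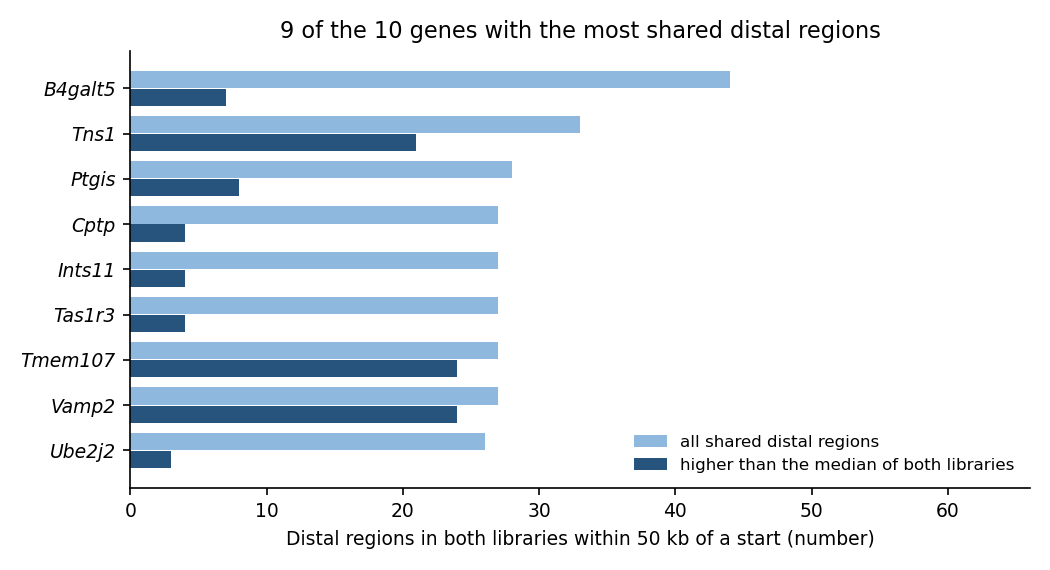
Number of shared distal regions up to 50 kb from a start, for 9 of the 10 genes with the most, with the number that were above the library median height in both libraries as the darker bar. B4galt5 has the longest light bar (44) but a dark bar of 7, and Tmem107 and Vamp2 have 27 and 24.

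The window held 98 merged regions, of which 59 (60.2%) had a peak in both libraries, 21 only in replicate 1 and 18 only in replicate 2. Over the genome 45.7% of merged regions were shared. Shared regions numbered 2.29 per 10 kb in the window and 0.241 per 10 kb in the genome. They were unevenly placed, with 34 between the genes, 12 in the B4galt5 body, 5 in the Ptgis body, 5 beyond the Ptgis 3' end and 3 upstream of B4galt5. Their median mean height was 0.443, from 0.160 to 4.85.

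Most of the density lay in 2 runs, stretches in which at least 10 merged regions followed each other with gaps of at most 1 kb. The run nearer Ptgis, chr2:167261221-167281940 (20.7 kb), lay wholly between the genes and held 35 merged regions, 21 of them shared. The run nearer B4galt5, chr2:167291381-167310480 (19.1 kb), covered the 3' end and the internal start of B4galt5 and held 29, of which 20 were shared. Merged regions covered 52.0% and 71.8% of their bases, and the median gap inside them was 182 bp, against 2780 bp elsewhere in the window. Of the 44 B4galt5 regions 40 lay in the runs, 21 in the one nearer Ptgis, and of the 28 Ptgis regions 21 did.

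The runs differed from other runs of the genome in how much of them the libraries shared. There were 600 runs, holding 6.75% of all merged regions. By the number of merged regions the pair ranked 24 and 43, but by the number of shared regions they ranked 2 and 3. A run at Nfic on chromosome 10 had 22, and one at Acap3 on chromosome 4 had 20 as well. The median run had 1 shared region and 177 had none. Over all runs 77.6% of merged regions were found only in replicate 1 and 5.99% only in replicate 2. By Ptgis those numbers were 11 and 3 regions, and by B4galt5 they were 8 and 1.

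**Figure D2:**
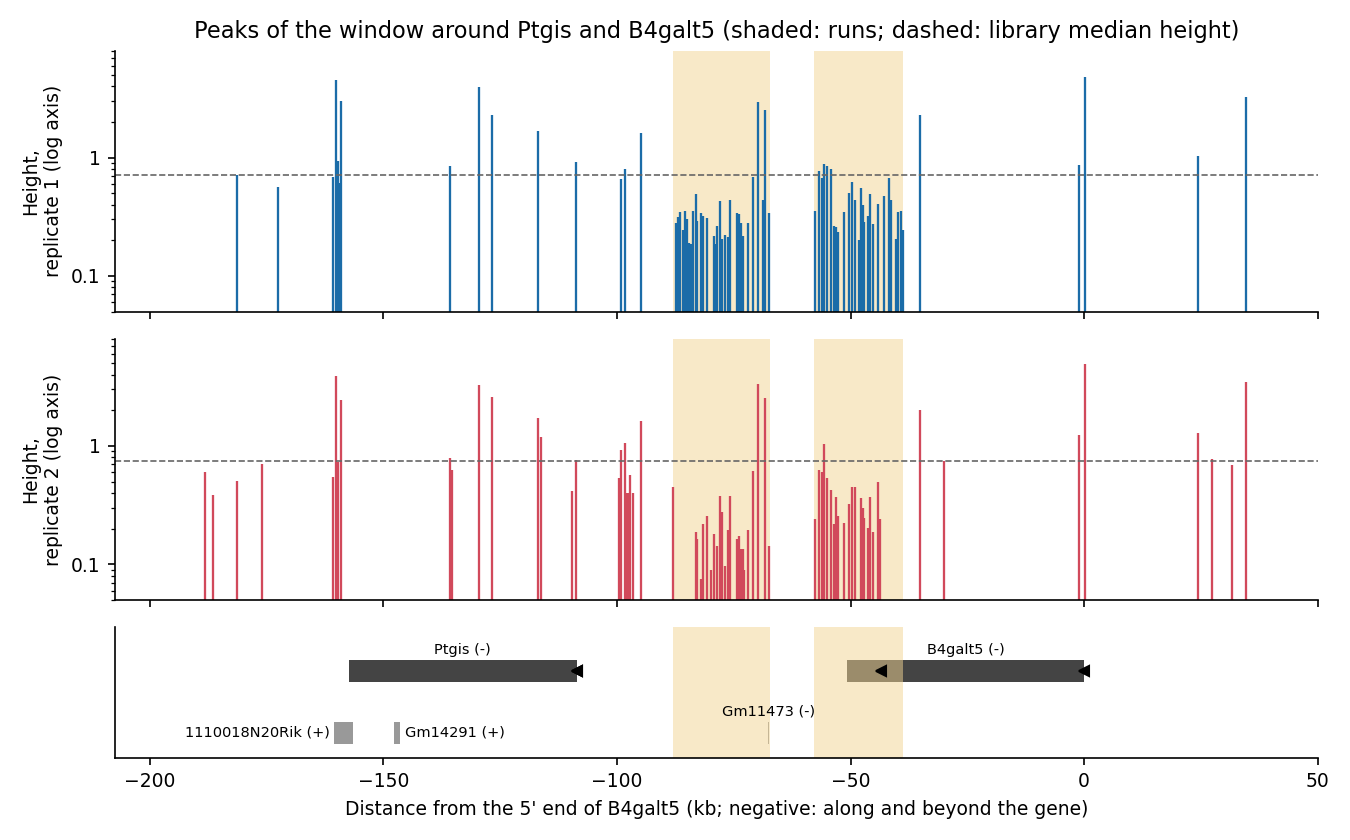
Peak heights of each library (log axis) against the distance in kb from the 5' end of B4galt5, with gene bodies and protein-coding starts (triangles) beneath, the runs shaded and the library median dashed. The runs stand out as closely spaced low peaks between Ptgis and the 3' part of B4galt5, and the tall peaks lie mostly outside them.

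**Figure D3:**
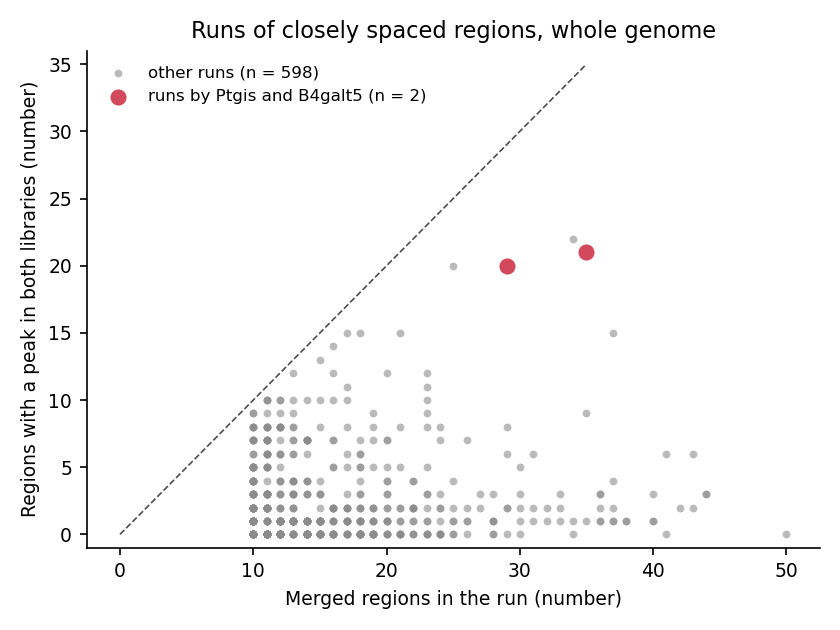
Merged regions in each of the 600 runs of the genome against how many of them had a peak in both libraries, with all regions shared along the dashed line. The runs by Ptgis and B4galt5 have 21 and 20 shared regions, while the median run has 1.

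Between the runs lay 9.44 kb without a listed peak in either library. This stretch was 94.1% repeat-masked in the reference and 13.2% of its 32-base words occurred once in the genome, against 90.5% and 95.5% in the runs and 90.2% in the whole window. Whether reads could be placed in it was not tested.

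Regions inside the runs were low and wide. Of 41 shared ones, heights in replicate 1 ran from 0.207 to 2.96 with a median of 0.340, and in replicate 2 from 0.0750 to 3.34 with a median of 0.255. Those medians are 64 and 34 steps, and 6 and 3 of the 41 lay above the library median. Shared regions of the window outside the runs numbered 18, with a median mean height of 1.39. The median width was 332 bp in the run nearer Ptgis and 430 bp in the run nearer B4galt5, where the widest spanned 1388 bp, against 240 bp outside the runs and 214 bp over the genome. A site open weakly in many cells and one open in few cells cannot be told apart in such bulk libraries.

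Low peaks of the runs carried lower false discovery rates than equally low peaks elsewhere in replicate 2, and similar ones in replicate 1. In replicate 2, 26 of the 30 run peaks at or under the median height of 0.255 (86.7%) reached a deposited rate of 0.001, against 7.36% of all peaks of that height or less. In replicate 1, 21 of 40 at or under 0.340 (52.5%) did, against 52.1%. Positions with a listed rate made up 61.4% and 66.5% of the run nearer Ptgis in replicates 1 and 2, and 83.7% and 66.4% of the run nearer B4galt5. Over the genome they made up 1.14% and 1.37%. Of the 41 shared run regions 29 (70.7%) had a peak of the shorter, stricter list in both libraries, near the 65.5% of all shared regions.

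The replicates differed in height inside the runs more than around them. In the runs 33 of 41 shared regions were lower in replicate 2, and 38.5% of shared regions were lower there over the genome. A difference of more than 1.5 times was found at 16 of 41, all lower in replicate 2, against 20.2% in either direction over the genome. Outside the runs 9 of 18 were lower in replicate 2 and none differed by that much. The median ratio of replicate 2 to replicate 1 was 0.724 in the runs, 0.978 elsewhere in the window and 1.09 over the genome. Over all shared regions at or under a mean height of 0.452, the upper quartile of the runs, the median ratio was 0.989.

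The libraries also differed at an edge of each run. Toward Ptgis, 9 neighbouring regions over 3.82 kb, chr2:167261861-167265680, were listed only in replicate 1, at heights of 0.186 to 0.356. At the other end, 7 neighbouring regions over 4.84 kb inside B4galt5, chr2:167305641-167310480, were again listed only in replicate 1, at 0.207 to 0.669, and replicate 2 had its last peak of the run at 167305535. Beyond the first of these stretches replicate 2 had 1 peak of the run, chr2:167261221-167261300, and beyond the second it had none.

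**Figure D4:**
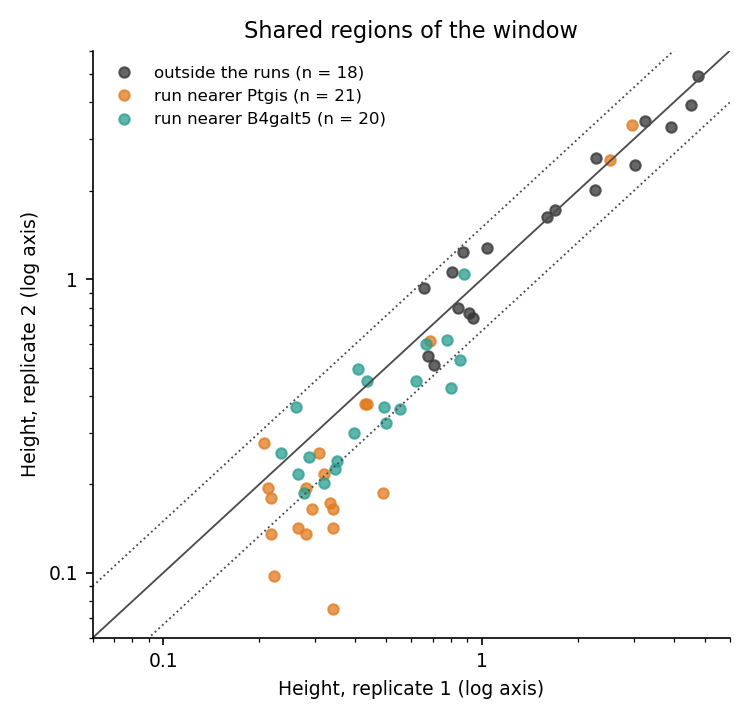
Heights of the 59 shared regions of the window in replicate 1 and replicate 2 (log axes), with equality as the solid line and a difference of 1.5 times as the dotted ones. Regions outside the runs lie within the dotted lines, and 16 run regions lie under the lower one.

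The promoter of B4galt5 was the tallest region of the window. It lay over the first exon and upstream of it, with heights of 4.78 and 4.93 in replicates 1 and 2 (4.85 ± 0.105, SD, n = 2), from 900 and 657 steps. This is rank 5238 of 14066 genes with a promoter region in both libraries, whose median was 3.90. The promoter region of Ptgis was lower, at 0.913 and 0.765 (0.839 ± 0.105, SD, n = 2), rank 12733, and was not in the shorter list of both libraries. The values of the genes did not overlap, and in each gene the libraries lay close together. The internal start of B4galt5 lay in a region listed only in replicate 1, chr2:167305641-167306960, at a height of 0.473. The shared region nearest to that start, chr2:167304681-167305340, centred in a coding exon, had 0.409 and 0.495.

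Within the run nearer Ptgis 2 regions stood far above the rest. At chr2:167279241-167279420 the heights were 2.96 and 3.34 (3.15 ± 0.274, SD, n = 2), and at the other region they were 2.52 and 2.54 (2.53 ± 0.0144). The next highest of this run, chr2:167278121-167278460, had 0.685 and 0.615. No other shared region of the runs reached a mean of 1, and the tallest of the run nearer B4galt5, chr2:167293401-167293640, had 0.876 and 1.04 (0.959 ± 0.118). Both tall regions lay between the genes.

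The sequence of the first, from the RefSeq GRCm38 reference, is shown on the plus strand as an example of the tall regions. Capitals mark a place 1 base from the consensus of CTCF, the protein that anchors chromatin loops, at a footprint in both libraries. This search with 1 mismatch was added after the sequences were seen.
chr2:167279241-167279420: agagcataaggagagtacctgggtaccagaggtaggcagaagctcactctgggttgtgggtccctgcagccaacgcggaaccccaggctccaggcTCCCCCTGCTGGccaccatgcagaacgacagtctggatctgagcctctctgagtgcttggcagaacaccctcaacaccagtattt
It was not the only one, since 2 of the 40 distal shared regions in the runs (5%) had a place at up to 1 mismatch. The share was 31.4% of all shared distal regions and 14.2% of those at or under a mean height of 0.452. None of the 40 held the full consensus in the central 150 bp, against 11.6% and 3.33%. The 2 run regions with 1 mismatch both had mean heights above 0.452. No run region at or under that height had such a place in its central 150 bp. Only that part of each region was searched for these counts. The median width was 366 bp for shared run regions and 200 bp for all shared distal regions. A smaller part of a typical run region was therefore searched.

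Among the tall regions outside the runs were some in Ptgis introns, in a B4galt5 intron and upstream of B4galt5. Others lay beyond the Ptgis 3' end and are not reported here. In Ptgis, chr2:167219481-167219660 had 3.91 and 3.29 (3.60 ± 0.439, SD, n = 2), chr2:167222261-167222440 had 2.29 and 2.59 (2.44 ± 0.211), and chr2:167232181-167232480 had 1.69 and 1.72 (1.71 ± 0.0221). Upstream of B4galt5, chr2:167383781-167383980 had 3.25 and 3.45 (3.35 ± 0.142), and in a B4galt5 intron chr2:167313941-167314120 had 2.27 and 2.01 (2.14 ± 0.186). In all of these the library values were within 1.5 times of each other.

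Footprints, the short protected stretches within a peak, were closely spaced in the runs, as the peaks were, but seldom in the same place in both libraries. The window had 203 footprints in replicate 1 and 155 in replicate 2. Merged, they made 297 places, of which 54 (18.2%) were found in both, against 30.9% over the genome. In the runs it was 19 of 192 (9.90%) and in the rest of the window 35 of 105 (33.3%). The run nearer B4galt5 had 45.5 footprints per 10 kb in replicate 1 and 21.5 in replicate 2, and the genome had 0.839 and 1.00. Those densities follow the share of positions with a listed rate, 83.7% and 66.4% of this run against 1.14% and 1.37% of the genome. Per listed base the run had fewer footprints, 87 on 15983 bases in replicate 1 and 41 on 12684 in replicate 2. The genome had 228557 on 31070086 and 273271 on 37254436. Each library had a footprint, at the same place or not, in 16 of the 41 shared run regions (39.0%) and 16 of the other 18. The share was 84.3% of all shared regions. Lower heights, with fewer steps behind each footprint, went with this, and their part in it was not tested.

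Of the 54 footprints of both libraries 13 overlapped 1 of the 19 consensus sequences, 1 of them, over SP/KLF (GGGCGGG), outside the listed regions and the others in 7 regions. Besides the B4galt5 promoter, with SP/KLF, these regions held CTCF in Ptgis introns at chr2:167213192-167213625 and chr2:167222261-167222440, an E-box (CACGTG) at chr2:167254221-167254540 and chr2:167271141-167271380, and AP-1 (TGANTCA) at chr2:167293401-167293640 and chr2:167383781-167383980. The second E-box region and the first AP-1 region lie in runs, the others outside. Such overlaps were not counted over the genome, so whether 13 of 54 is high or low is not known. Shown on the plus strand, with matches under a footprint of either library in capitals, are a tall region and a run region for comparison, first for Ptgis and then for B4galt5.
Ptgis intron, CTCF: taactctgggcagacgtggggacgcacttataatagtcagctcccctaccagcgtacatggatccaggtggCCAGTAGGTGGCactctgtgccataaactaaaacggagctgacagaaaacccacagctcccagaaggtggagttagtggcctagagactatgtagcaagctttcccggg
Run nearer Ptgis, E-box: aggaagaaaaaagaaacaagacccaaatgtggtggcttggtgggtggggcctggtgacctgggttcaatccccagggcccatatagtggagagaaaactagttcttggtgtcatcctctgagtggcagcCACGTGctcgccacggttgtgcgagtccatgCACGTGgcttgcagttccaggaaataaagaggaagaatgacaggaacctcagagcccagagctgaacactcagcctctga
Upstream of B4galt5, AP-1: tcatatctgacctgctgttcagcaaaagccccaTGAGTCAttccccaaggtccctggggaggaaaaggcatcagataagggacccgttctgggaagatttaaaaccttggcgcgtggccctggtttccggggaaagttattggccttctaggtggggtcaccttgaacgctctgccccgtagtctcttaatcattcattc
Run nearer B4galt5, AP-1: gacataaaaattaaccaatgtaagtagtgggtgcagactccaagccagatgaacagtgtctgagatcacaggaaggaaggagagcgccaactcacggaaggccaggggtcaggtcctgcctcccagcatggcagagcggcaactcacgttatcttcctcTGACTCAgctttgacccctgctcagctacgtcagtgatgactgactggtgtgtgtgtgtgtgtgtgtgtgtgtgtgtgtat
The E-box region had heights of 0.430 and 0.375, and of its 2 matches the one at 167271301 lay under a footprint of both libraries.

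In GC content the run regions were near other distal regions, while a larger share of their bases was repeat-masked. Median GC was 55.3% in 150 bp windows, against 53.3% over all shared distal regions. Repeat-masked bases made up a median of 13.3% of a run region, against 2.50%, and the central 32 bases occurred once in the genome for 97.6%, against 98.2%. AP-1 matched in 5 of 41 (12.2%, against 10.4%). NR5A1 (CAAGGNCA), the site of the steroidogenic regulator SF-1, matched in 4 of 41 (9.76%, against 8.16%). Any of the 19 consensus sequences matched in 14 of 41 (34.1%), against 49.9% of all shared distal regions and 45.7% of those at or under a mean height of 0.452. These motif counts cover only the central 150 bp of each region. That is a smaller part of a run region (median width 366 bp) than of a shared distal region (200 bp). The part of width in the lower share was not tested.

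Enzymes related to B4galt5 and Ptgis were open at their promoters in nearly all cases. Of the beta-1,4-galactosyltransferases 7 of 7 had a promoter region in both libraries, against 64.5% of all genes. B4galt5 was lower than B4galt1 (8.47 ± 0.0751, SD, n = 2), the main galactosyltransferase of N-glycans, and B4galt3 (8.43 ± 0.397). Its mean was higher than that of B4galt7 (4.28 ± 0.874), whose product helps to build proteoglycan chains, but the order differed between libraries. B4galt7 had 4.90 and 3.66 in replicates 1 and 2, and B4galt5 had 4.78 and 4.93. B4galt6, the other lactosylceramide synthase, had 3.35 and 2.07. B4galt5 had 44 shared distal regions and the other 6 had 0 to 8. All 10 other glycosphingolipid enzymes were open, the highest being Galc (5.28 ± 0.0799), St3gal5 (4.08 ± 0.876), which makes ganglioside GM3, and Ugcg (3.56 ± 0.712), which makes the substrate of B4galt5.

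Of the prostanoid enzymes 10 of 11 were open, all but Ptgds, a prostaglandin D synthase. Of these, 6 had a higher mean promoter height than Ptgis, though not all of them in both libraries. The tallest were Ptges3 (7.17 ± 1.89, SD, n = 2), Ptges2 (6.09 ± 0.273) and Tbxas1 (3.06 ± 0.614), the thromboxane synthase, followed by Ptgs1 (1.11 ± 0.0620), a cyclooxygenase that makes the substrate of Ptgis. The other cyclooxygenase, Ptgs2, had 0.473 and 0.825, a range that overlaps that of Ptgis. Ptgis had 28 shared distal regions and the other enzymes 0 to 11. Among prostanoid receptors 6 of 9 were open in both libraries, with Ptger4 (4.43 ± 0.0648), Tbxa2r (2.19 ± 0.144), Ptger1 (1.12 ± 0.173) and Ptgfr (0.824 ± 0.126) highest. Ptgir, the prostacyclin receptor, had a region only in replicate 2 (1.23), and Ptgdr and Ptgdr2 had none listed.

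**Figure D5:**
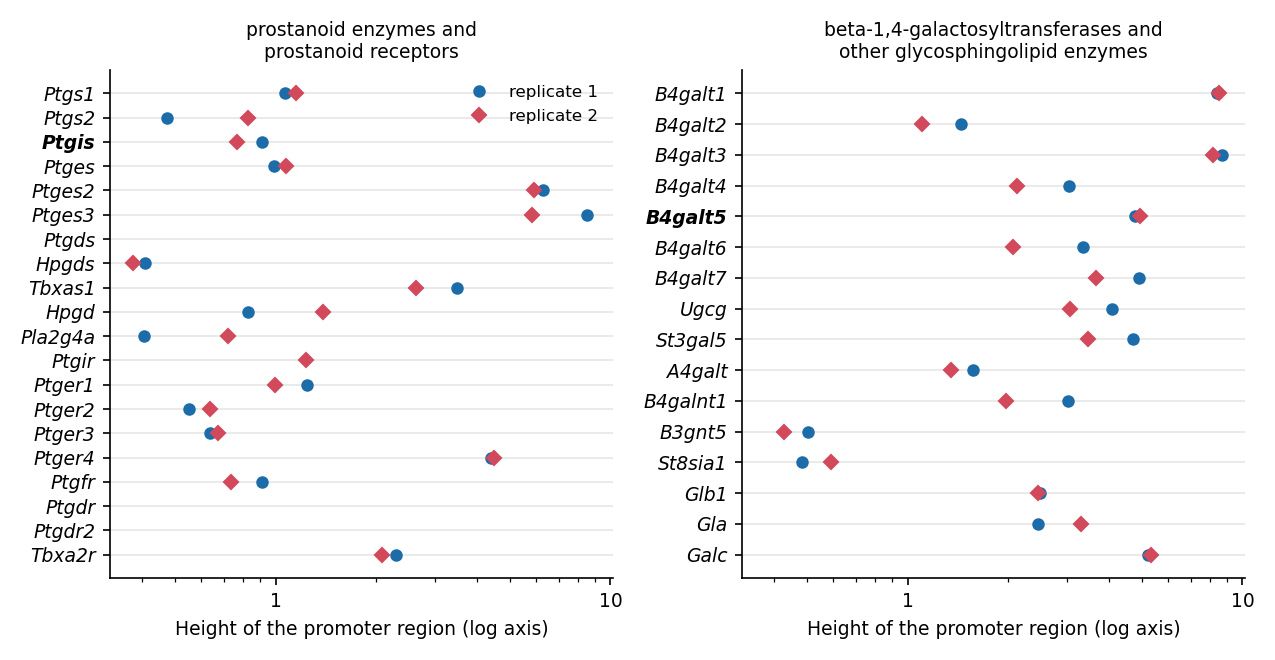
Height of the promoter region in each library (log axis) for prostanoid genes (left) and for galactosyltransferases and other glycosphingolipid enzymes (right). B4galt5 lies near 4.85 in both libraries, below B4galt1 and B4galt3, while Ptgis lies near 0.839. Genes without a point for a library had no peak listed in that library.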

How the data were processed

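The authors called peaks and footprints and computed false discovery rates in each library on mm10, per the file headers and the labels. Which aligner and callers they ran is not given in the sources used here. Peak heights are the signal deposited by the authors, normalised for depth, and 100% of them are whole multiples of the library's step to within 0.05 of a step (median 135 and 100 steps). The false discovery rate (a q-value) deposited by the authors is listed only for positions under 0.05, and the score of 0.01 in every footprint row was not used. Reads and signal tracks were not used here.

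The members and the gene lists were chosen with earlier results of these data known. Peaks of the longer list overlapping by at least 1 bp were merged over both libraries, and a region's height in a library is its highest peak there (pandas 2.3.3, bedtools 2.31.1). A promoter lay within 1 kb of a protein-coding start of GENCODE vM21, for 21802 genes with 54236 starts after 27 symbols naming more than 1 gene were left out. Sequence came from the RefSeq copy of GRCm38.p6, which has the coordinates of mm10. The hybrid's alleles were not told apart. Motifs were searched, on either strand, in the central 150 bp of regions and in footprints extended by 3 bp. The matches are those of the reference sequence. Some genes and sequences that the naming rule covers are not reported here. Scripts were tested on simulated data. Named were B4galt5, Ptgis, the window's genes, the 10 genes with the most shared distal regions, the 4 tallest promoters of each related gene list and those without one, the 10 tallest shared regions and those with a footprint of both libraries over a motif. Other regions and genes, such as run edges and Ptgs2, were named after their values were seen. Alternatives were the shorter list, each library alone, other overlaps, distances, starts and windows, and, added after the data were seen, the 5'-most start and the window without its runs.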

Additional observations from a re-analysis of the deposited data

How the results depend on the processing

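The counts depended on what was counted. The promoter height of B4galt5 was the same in the shorter list, which gave no value for Ptgis, and with 2 libraries leaving one out says nothing on the stability of either. The B4galt5 count of 44 was 54 to 68 in single libraries, 7 with peaks above the median height, 21 within 20 kb, 12 with the 5'-most start only and 4 without the runs, and it moved by less than 1.5 times in 7 of 12 alternatives. The Ptgis count of 28 was 41 in either library alone, 17 in the shorter list, 8 with peaks above the median height, 5 within 20 kb, 49 within 100 kb and 7 without the runs. Shared regions of the window (59) were 82 to 87 in single libraries, 39 in the shorter list, 17 above the median height, 17 within the gene bodies and 18 without the runs. Their median height (0.443) was 0.388 to 0.397 in single libraries, 2.14 above the median height, 0.611 with 100 kb to each side and 1.39 without the runs. Footprints in both libraries (54) were 15 within the gene bodies and 35 without the runs, and single libraries had 155 to 203. The B4galt5 and Ptgis counts thus rest on the runs, and for B4galt5 on the internal start. The low regions of the runs rest on few steps, with medians of 64 and 34, and the part of depth was not tested. No paired analysis was possible because the libraries form 1 group.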
